A study of Mus musculus with 19 samples.

Results

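The genes described here are a set of skeletal muscle genes measured in subcutaneous mouse medulloblastomas: the actins, troponins, myosins, Z-disc proteins, calcium handling proteins and metabolic enzymes that make up a contracting fibre. They were taken as a list of 35 symbols, and every probe set that the array's annotation assigns to 1 of them was used. For 34 of the 35 genes there were 56 probe sets, of which 50 passed a filter on low signal, and each of the 34 genes kept at least 1. Xirp2, an actin-binding protein with Xin repeats, had no probe set and was not analysed here. The whole array gave 13454 genes and 45037 probe sets without controls. The list was meant as a sign of host muscle in the graft.

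There were 8 tumours from mice given NVP-LDE225 at 40 mg/kg, 8 from mice given it at 160 mg/kg, and 3 from mice given vehicle. NVP-LDE225 is an antagonist of Smoothened, the membrane protein that passes on the Hedgehog signal. The labels call all 16 treated tumours resistant and the vehicle tumours sensitive, so treatment and resistance form 1 contrast; the source names use resistant for tumours 6 and 7 at 160 mg/kg and treated for the others. All groups share the tumour genotype Ptch+/-p53-/-, and in all of them cells dissociated from tumours had been injected under the skin of nu/nu mice, which lack a thymus. Treatment began about 10 days after implantation, and the labels give no age of the mice and no length of treatment. Each tumour was measured on 1 array, and the labels do not state that each came from a different animal, so the p-values reflect only how much these samples vary. Graft and host are both mouse, so the origin of a muscle transcript, from the host or from the grafted cells, cannot be told apart on these arrays.

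In a muscle fibre, calcium released by the ryanodine receptor binds troponin on the actin filament, tropomyosin moves aside, and myosin heads pull the filaments past each other. Troponin subunits, myosin chains and Z-disc proteins exist in fast and slow versions encoded by different genes. Developing and regenerating muscle uses further versions, such as the embryonic and perinatal myosin heavy chains, cardiac actin and cardiac troponin T, before the adult ones take over. The list holds 14 genes typical of fast fibres, 5 typical of slow fibres and 16 that are not tied to a fibre type.

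The values are MAS5 signals on a linear scale, with a median per array between 32.7 and 49.7. Differences are on the log2 scale after adding 2.5, the 10th percentile of all signals, which understates the change of dim genes. Tumour 2 at 160 mg/kg and vehicle tumour 3 had the lowest mean correlations with the other arrays, 0.916 and 0.915. For the labelled tumour type, the granule neuron lineage genes Neurod1 and Zic1 were at 2124 to 5490 and 4346 to 5445 at 40 mg/kg, 2280 to 5415 and 3632 to 6115 at 160 mg/kg, and 1255 to 1865 and 3233 to 3647 in vehicle tumours. Other genes of that lineage were not bright on every array. Tumour 2 at 160 mg/kg, which ranked 19 of 19 by the mean of the 10 medulloblastoma genes, had 22.5 for Atoh1, 32.7 for Barhl1 and 128 for Sox2, against 1196 to 1422, 608 to 624 and 672 to 780 in vehicle tumours. Sox2 was at 34.2 in tumour 6 at 160 mg/kg.

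The muscle genes differed widely between tumours of the same group. The SD of a listed gene between tumours, on the log2 scale, had a median of 2.05 at 40 mg/kg, 1.54 at 160 mg/kg and 1.04 in vehicle tumours, beside 0.266, 0.329 and 0.198 over all genes. From the lowest to the highest of the 19 tumours the listed genes spanned a median of 6.02 log2 units, with 1.97 the smallest span (Tpm2) and 9.93 the largest (Myh1). The median span over all genes was 1.26. In tissue RNA of this kind, fewer muscle cells and less muscle RNA per cell cannot be told apart.

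A few tumours carried most of the signal. Tumour 5 at 40 mg/kg had the highest signal for 23 of the 34 genes and tumour 6 at 40 mg/kg for 9. The exceptions were Tpm2, highest in tumour 6 at 160 mg/kg, and Pvalb, highest in tumour 4 at 160 mg/kg. For 20 genes the 3 highest tumours were these 2 and tumour 7 at 160 mg/kg. These counts rest on 1 probe set per gene. Of 10 genes with several kept probe sets, 5 had the same highest tumour for all of them. The other kept probe sets of Ttn, which was counted for tumour 5, peaked in tumour 6 at 40 mg/kg. The second kept probe set of Ckm peaked in vehicle tumour 3, at 50.4. The mean of the listed genes on the log2 scale was 8.70 in tumour 5 and 8.16 in tumour 6 at 40 mg/kg, and 7.81 in tumour 7 at 160 mg/kg. Vehicle tumour 1 came next with 6.55. The lowest mean, 3.92, was in tumour 6 at 160 mg/kg. As groups, the 40 mg/kg tumours ranged from 4.14 to 8.70 with a median of 5.88, the 160 mg/kg tumours from 3.92 to 7.81 with a median of 4.49, and the vehicle tumours had 6.55, 4.88 and 5.54. All 3 ranges overlapped.

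**Figure D1:**
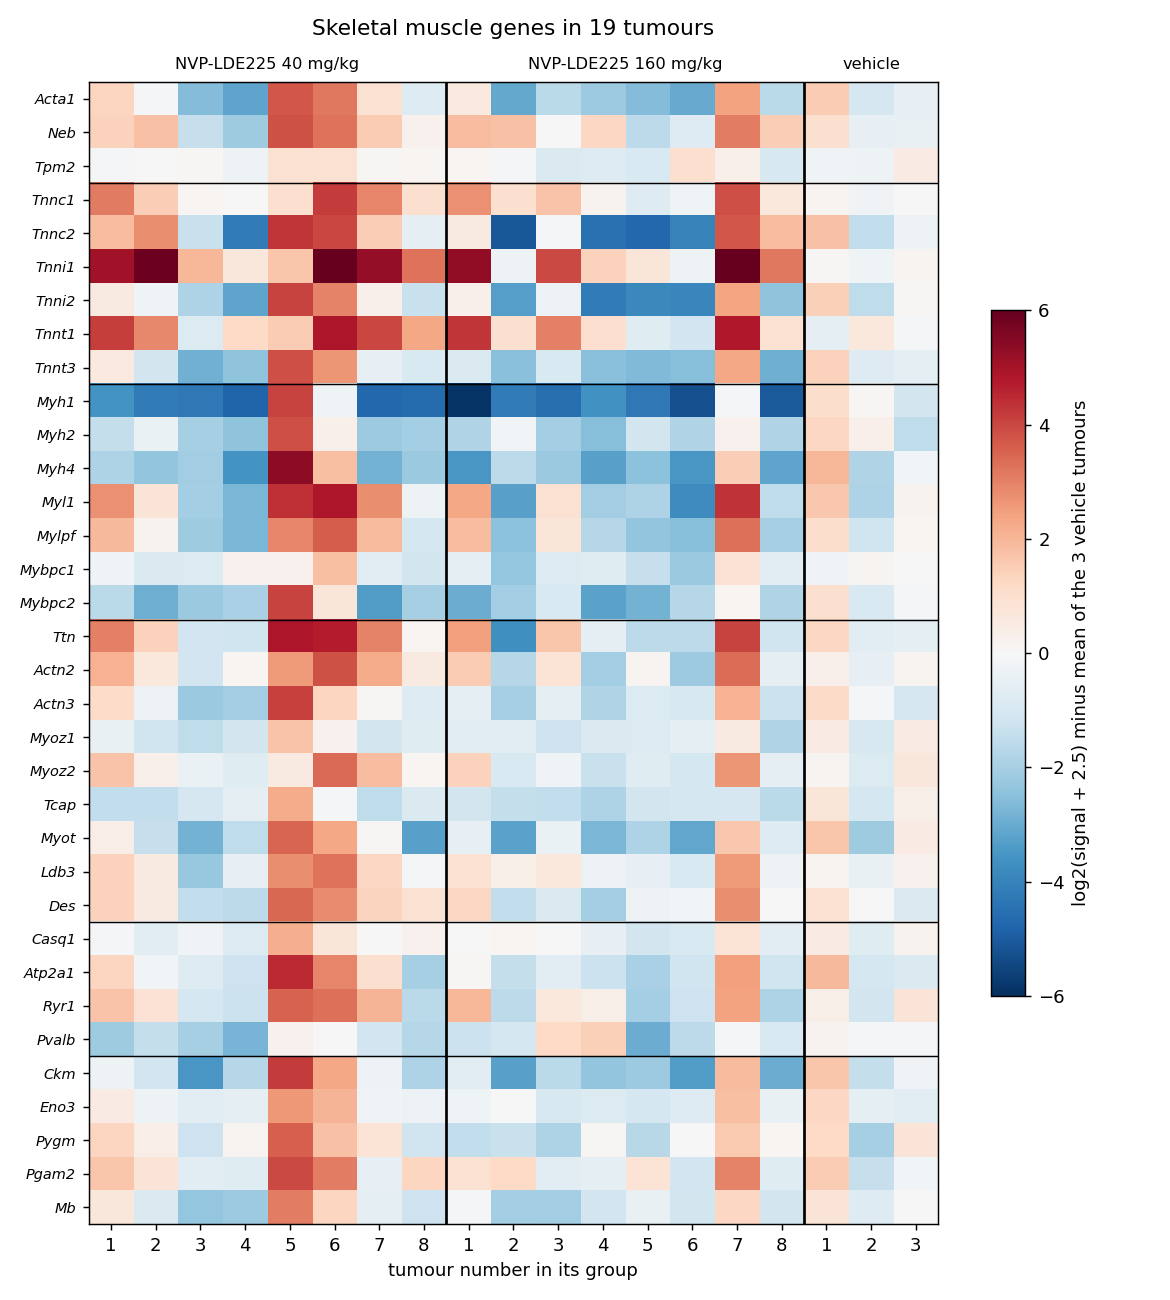
Each cell gives a muscle gene in a tumour as log2(signal + 2.5) minus the mean of the 3 vehicle tumours, with genes in rows by role and tumours in columns by group. Tumours 5 and 6 at 40 mg/kg and tumour 7 at 160 mg/kg are red for most genes, whereas the fast myosins are blue in most other treated tumours.

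The thin filament genes showed the pattern in its simplest form. Acta1, the skeletal actin of the thin filament, had a lowest, median and highest signal of 35.1, 471 and 4524 at 40 mg/kg and 38.1, 89.7 and 1780 at 160 mg/kg, against 950, 167 and 234 in the 3 vehicle tumours. Only 3 treated tumours exceeded the highest vehicle value, and 8 lay below the lowest. Neb, the nebulin ruler protein, ran through 3.80, 73.4 and 386 at 40 mg/kg and 6.90, 68.1 and 228 at 160 mg/kg, and the vehicle values were 50.4, 17.2 and 17.5; 10 of the 16 treated tumours exceeded all vehicle tumours. Tpm2 encodes beta-tropomyosin, which is also made in smooth muscle and fibroblasts. Its signals were 92.0, 119 and 219 at 40 mg/kg and 56.9, 87.4 and 230 at 160 mg/kg, and 99.5, 91.8 and 163 in vehicle tumours. The probe set used for Tpm2 peaked in tumour 6 at 160 mg/kg, in which the smooth muscle genes Acta2 (1250) and Tagln (444) also had their highest signal. The other 3 probe sets of Tpm2 peaked in tumour 6 at 40 mg/kg, as many muscle genes did.

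The troponins fell into fast and slow genes with different tumours on top. Among the fast ones, Tnnc2, the calcium-binding subunit of fast fibres, ran through 5.60, 467 and 2952 at 40 mg/kg and 1.90, 71.7 and 1986 at 160 mg/kg, beside 500, 51.7 and 119 in vehicle tumours. Tnnt3, the tropomyosin-binding subunit, had 9.90, 55.3 and 1362 at 40 mg/kg and 9.80, 13.7 and 462 at 160 mg/kg, beside 237, 52.3 and 58.6 in vehicle tumours. Tnni2, the inhibitory subunit, had 7.60, 90.5 and 1510 at 40 mg/kg and 2.40, 10.5 and 463 at 160 mg/kg, beside 243, 29.0 and 91.4 in vehicle tumours. All 3 fast genes were highest in tumour 5 at 40 mg/kg, and vehicle tumour 1 was the highest of the vehicle tumours for each. Tnni2 and Tnnt3 are neighbours on chromosome 7 with 1 protein-coding gene between them.

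The slow troponins, whose full values were looked at after their pattern was seen, were low in all vehicle tumours. Tnni1, the inhibitory subunit of slow fibres, had 7.30, 126 and 806 at 40 mg/kg and 2.30, 32.3 and 491 at 160 mg/kg, against 3.90, 2.60 and 4.20 in vehicle tumours. All 8 tumours at 40 mg/kg and 6 of 8 at 160 mg/kg lay above the highest vehicle value, and the vehicle values lie close to the 2.5 that was added to each signal. Tnnt1, the tropomyosin-binding subunit, had 2.80, 55.0 and 269 at 40 mg/kg and 1.70, 16.2 and 261 at 160 mg/kg, against 4.0, 12 and 6.20 in vehicle tumours. Tnnc1, the calcium-binding subunit shared by slow and cardiac muscle, had 24.2, 59.7 and 471 at 40 mg/kg and 13.0, 43.0 and 373 at 160 mg/kg, against 27.2, 19.8 and 24.3 in vehicle tumours. All 3 genes were highest in tumour 6 at 40 mg/kg and next highest in tumour 7 at 160 mg/kg. Tumour 5 at 40 mg/kg, which led for the fast genes, had only 16.6 for Tnni1, 24.2 for Tnnt1 and 50.0 for Tnnc1.

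**Figure D2:**
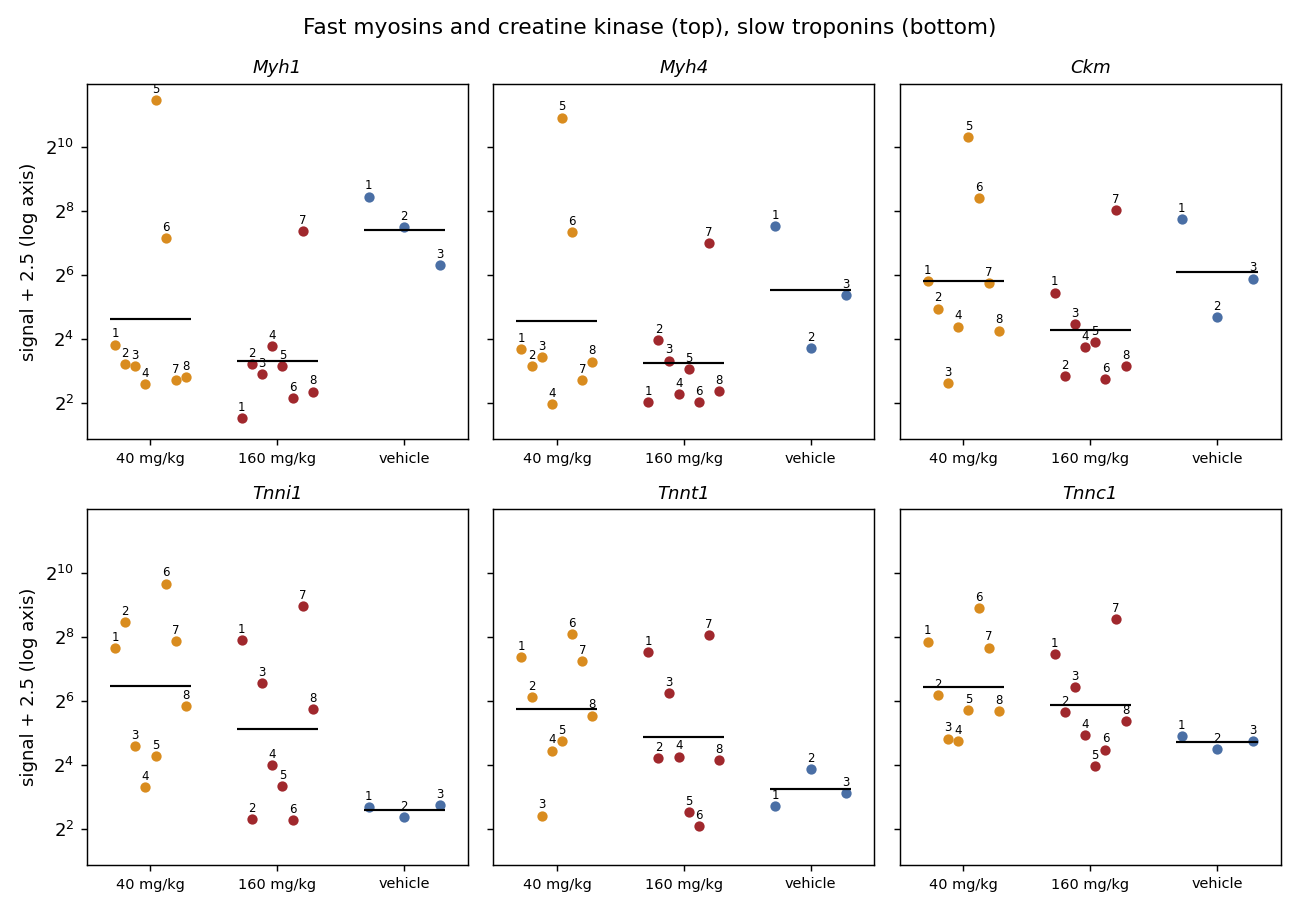
Signal plus 2.5 on a log axis for 2 fast myosins and Ckm (top) and the 3 slow troponins (bottom), with a point for each tumour, its number beside it, and a line at the mean of the log values of the group. Tumour 5 at 40 mg/kg leads the top row and is far lower in the bottom row, where the vehicle tumours lie near the floor for Tnni1.

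The fast myosin heavy chains were high in tumour 5 at 40 mg/kg, present in vehicle tumours and near the floor in most other treated tumours. Myh4, the IIb heavy chain of the fastest fibres, had 1.40, 7.80 and 1929 at 40 mg/kg and 1.60, 4.25 and 125 at 160 mg/kg, against 181, 10.7 and 38.8 in vehicle tumours. Tumour 5 at 40 mg/kg was the only treated tumour above all vehicle tumours, and 12 of 16 lay below all of them. Myh1, the IIx heavy chain, had 3.5, 6.55 and 2833 at 40 mg/kg and 0.400, 5.60 and 162 at 160 mg/kg, against 346, 178 and 76.0 in vehicle tumours. For Myh1, 13 of 16 treated tumours lay below all vehicle tumours. Myh2, the IIa heavy chain, had 1.10, 3.5 and 281 at 40 mg/kg and 0.800, 2.95 and 20.2 at 160 mg/kg, against 42.3, 20.9 and 4.20 in vehicle tumours. Myosin heavy chain genes are close in sequence, and the second kept probe set of Myh1 is of the class whose probes may match other genes, so the division of signal between them is uncertain. That probe set gave 1978 in tumour 5 at 40 mg/kg and 217, 128 and 56.8 in vehicle tumours.

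The fast light chains did not share this gap. Mylpf, the regulatory light chain, had 29.6, 511 and 2631 at 40 mg/kg and 33.9, 56.8 and 2083 at 160 mg/kg, beside 443, 90.8 and 227 in vehicle tumours. Myl1, the essential light chain, had 15.4, 506 and 3519 at 40 mg/kg and 6.40, 36.0 and 2445 at 160 mg/kg, beside 371, 31.5 and 139 in vehicle tumours. Both were highest in tumour 6 at 40 mg/kg, and both are also made in embryonic muscle. Of the myosin-binding proteins, the fast Mybpc2 was at 531 in tumour 5 at 40 mg/kg, at 50.7 or less in all other treated tumours, and at 60.8, 14.8 and 28.2 in vehicle tumours. The slow-type Mybpc1 had 42.1, 70.7 and 338 at 40 mg/kg and 16.5, 53.8 and 172 at 160 mg/kg, beside 80.8, 107 and 95.1 in vehicle tumours, and 11 of 16 treated tumours lay below all vehicle tumours.

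The promoters of genes with these different patterns are shown, since the members move together by tumour and not only by group. Myh3 (the embryonic heavy chain, outside the list), Myh2, Myh1, Myh4 and Myh8 follow each other on chromosome 11 with 0 other protein-coding genes between them, although Myh3 and Myh4 were highest in different tumours. The 250 bases before the start site are given from RefSeq on GRCm38.p6 for Myh3 (chr11:67078050-67078299, plus strand), Myh1 (chr11:67199852-67200101, plus strand), Myh4 (chr11:67237562-67237811, plus strand), Tnni1 (chr1:135799171-135799420, plus strand, the first of 2 start sites listed) and Acta1 (chr8:123894776-123895025, minus strand). Capitals mark matches to CANNTG, the E box that myogenic factors such as Myog can bind, to TATAAA on either strand, to the CArG box of serum response factor and to the MEF2 site.
Myh3: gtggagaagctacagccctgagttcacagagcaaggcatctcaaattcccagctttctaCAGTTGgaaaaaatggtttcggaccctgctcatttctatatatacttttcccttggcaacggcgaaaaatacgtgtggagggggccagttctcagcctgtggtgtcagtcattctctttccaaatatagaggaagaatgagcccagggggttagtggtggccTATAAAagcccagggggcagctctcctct
Myh1: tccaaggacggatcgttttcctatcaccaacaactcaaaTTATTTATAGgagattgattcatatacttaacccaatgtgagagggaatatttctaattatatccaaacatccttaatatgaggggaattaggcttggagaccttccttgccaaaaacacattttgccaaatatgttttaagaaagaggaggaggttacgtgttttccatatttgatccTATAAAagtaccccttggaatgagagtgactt
Myh4: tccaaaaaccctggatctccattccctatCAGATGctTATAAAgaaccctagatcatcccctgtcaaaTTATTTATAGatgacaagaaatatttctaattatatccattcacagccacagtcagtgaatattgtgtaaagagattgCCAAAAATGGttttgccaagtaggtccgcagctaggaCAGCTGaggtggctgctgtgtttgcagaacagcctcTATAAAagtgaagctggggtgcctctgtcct
Tnni1: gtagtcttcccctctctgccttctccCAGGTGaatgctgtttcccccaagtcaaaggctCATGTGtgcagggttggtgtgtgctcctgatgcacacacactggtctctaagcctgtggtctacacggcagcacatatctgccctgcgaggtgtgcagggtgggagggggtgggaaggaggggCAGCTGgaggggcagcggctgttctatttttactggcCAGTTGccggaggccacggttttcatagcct
Acta1: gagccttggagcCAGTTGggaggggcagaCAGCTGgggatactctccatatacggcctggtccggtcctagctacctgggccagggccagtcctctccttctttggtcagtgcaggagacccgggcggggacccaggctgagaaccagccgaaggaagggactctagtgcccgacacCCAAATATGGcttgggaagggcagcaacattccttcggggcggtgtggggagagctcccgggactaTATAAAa
Myh1 and Myh4 each hold a MEF2 match that overlaps a TATAAA match read on the minus strand. Myh4 also holds 2 E boxes and 1 CArG box, Tnni1 4 E boxes, Acta1 2 E boxes and 1 CArG box, and Myh3 1 E box. Among the 28 listed genes with a window that was read, 24 had an E box, 5 TATAAA, 3 a CArG box and 7 a MEF2 match. Over 32851 windows of this length the shares were 66.2%, 12.4%, 1.47% and 2.92%. A listed gene was counted if any of its windows matched, whereas these shares are of single windows. Genes with several start sites had more chances, so the counts and the shares are not directly comparable. A match describes letters in the window and not a site in use.

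At the Z disc and along the elastic filament, the tumours ranked much as for actin. Ttn, the giant elastic protein titin, had 28, 366 and 1986 at 40 mg/kg and 3.00, 36.4 and 1160 at 160 mg/kg, beside 165, 41.6 and 43.3 in vehicle tumours. Des, the desmin intermediate filament that smooth muscle also makes, had 6.70, 57.4 and 298 at 40 mg/kg and 4.10, 20.8 and 189 at 160 mg/kg, beside 48.7, 24.0 and 12.4 in vehicle tumours. A second Des probe set went the other way, with a log2 difference of -1.05 between all treated and vehicle tumours beside 0.42 for the probe set used, and its signals did not exceed 39.0 on any array.

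Tcap and Myoz1, like the fast myosins, were higher in some vehicle tumours than in most treated ones. Tcap, the telethonin cap that anchors titin, was at 22.1, 34.5 and 330 at 40 mg/kg and 17.2, 27.4 and 32.3 at 160 mg/kg, against 114, 31.6 and 87.0 in vehicle tumours. Myoz1, a fast-fibre calcineurin-binding Z-disc protein, was at 21.5, 34.8 and 226 at 40 mg/kg and 17, 38.7 and 96.5 at 160 mg/kg, against 93.3, 32.7 and 95.8 in vehicle tumours. Its slow counterpart Myoz2 followed the slow troponins, with 233 in tumour 6 at 40 mg/kg and 138 in tumour 7 at 160 mg/kg, beside 22.1, 10.0 and 33.0 in vehicle tumours. Actn2 and Actn3, the actin crosslinkers of the Z disc, differed in the same way. Actn3, the version of fast fibres, was at 762 in tumour 5 and 105 in tumour 6 at 40 mg/kg, whereas Actn2 was at 149 in tumour 5 and 354 in tumour 6. In vehicle tumours Actn3 was at 95.4, 38.4 and 19.4 and Actn2 at 29.0, 15.7 and 25.7. Ldb3, a LIM protein of the Z disc, and Myot, the actin-bundling myotilin, reached 221 and 306 at 40 mg/kg, 138 and 80.8 at 160 mg/kg, and 25.8 and 83.5 in vehicle tumours.

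Among the calcium handling genes, Atp2a1, the fast-fibre pump that returns calcium to the sarcoplasmic reticulum, had 10.5, 70.9 and 1139 at 40 mg/kg and 10.7, 19.6 and 281 at 160 mg/kg, beside 194, 22.4 and 25.3 in vehicle tumours. Casq1, the store protein of the reticulum, had 21.0, 37.3 and 185 at 40 mg/kg and 16.6, 32.2 and 68.6 at 160 mg/kg, beside 55.3, 22.3 and 45.0 in vehicle tumours. Ryr1, the release channel, reached 164 at 40 mg/kg and 74.5 at 160 mg/kg, beside 22.3 in vehicle tumours. Pvalb stood apart from all of these. It encodes parvalbumin, a calcium buffer of fast fibres and of some neurons.

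Pvalb had 137, 325 and 1168 at 40 mg/kg and 122, 483 and 2628 at 160 mg/kg, against 1102, 907 and 901 in vehicle tumours. The vehicle values were close together, with a log2 SD of 0.165, and 12 of 16 treated tumours lay below all of them. Its highest signals, 2628 in tumour 4 and 2219 in tumour 3 at 160 mg/kg, were in tumours with 72.6 and 108 for Acta1. Tumour 4 at 160 mg/kg also had the highest Adipoq (255) and Fabp4 (1599), markers of fat cells, and tumour 3 had 44.9 and 436. Fat cell genes did not always go with Pvalb: tumour 6 at 160 mg/kg had 138 for Adipoq and 822 for Fabp4 with 323 for Pvalb, and vehicle tumour 1 had 116 and 1004 with 1102. Their part in the Pvalb signal was not tested.

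The metabolic genes, none of them tied to a fibre type, were all highest in tumour 5 at 40 mg/kg, with tumour 6 at 40 mg/kg next. Ckm, the muscle creatine kinase that buffers ATP, had 3.60, 39.5 and 1256 at 40 mg/kg and 4.20, 11.7 and 256 at 160 mg/kg, beside 212, 23.0 and 56.5 in vehicle tumours, and 9 of 16 treated tumours lay below all vehicle tumours. The highest signal, in tumour 5 at 40 mg/kg, was far above the rest. Eno3, the muscle enolase of glycolysis, had 83.9, 115 and 854 at 40 mg/kg and 65.0, 90.2 and 489 at 160 mg/kg, beside 331, 90.6 and 86.6 in vehicle tumours. Pgam2, the muscle phosphoglycerate mutase, had 7.70, 32.8 and 257 at 40 mg/kg and 5.10, 18.0 and 129 at 160 mg/kg, beside 46.6, 3.90 and 12.7 in vehicle tumours. No treated tumour lay below all vehicle tumours for Pgam2. Pygm, which breaks down glycogen, and Mb, the oxygen store myoglobin, were likewise highest in tumour 5 at 40 mg/kg, with 207 and 223, and both had tumour 6 at 40 mg/kg next.

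Fast and slow genes were therefore set side by side within each tumour. Over the 14 fast genes the mean log2 difference from the vehicle mean was 3.55 in tumour 5 and 1.85 in tumour 6 at 40 mg/kg, and 1.68 in tumour 7 at 160 mg/kg. Over the 5 slow genes it was 1.00, 4.27 and 3.71 in the same tumours. Relative to vehicle tumours, tumour 5 thus leaned to the listed fast genes and the other 2 to the 5 listed slow ones. The slow means depend on low vehicle values. Tnni1, at 2.60 to 4.20 in vehicle tumours and so near the added 2.5, had a difference of 7.07 in tumour 6 at 40 mg/kg. Outside the list, the slow-fibre myosin genes Myh7 and Myl3 did not share this lean. In the same tumours Myh7 was at 9.10, 60.1 and 39.0, beside 46.3, 50.9 and 53.9 in vehicle tumours. Myl3 was at 20.6, 48.9 and 18.8, beside 50.4, 42.0 and 76.5. Of the 16 treated tumours, 13 lay below all vehicle tumours for Myh7 and 2 above, and 14 and 0 for Myl3. Tumour 5 at 40 mg/kg exceeded all vehicle tumours for 14 of 14 fast genes, and tumours 1 and 7 at 40 mg/kg and tumour 1 at 160 mg/kg for 3, 2 and 2 of 14. In these last 3 tumours 4 of 5 slow genes exceeded all vehicle tumours, with slow means of 2.77, 2.69 and 2.63 and fast means of -0.08, -0.59 and -0.89. Genes not tied to a fibre type also exceeded all vehicle tumours there, Ttn among them, and so did the fast light chains Myl1 and Mylpf. Over the groups, the slow mean ran from 0.01 to 4.27 at 40 mg/kg, from -1.0 to 3.71 at 160 mg/kg and from -0.10 to 0.16 in vehicle tumours. The fast mean ran from -2.57 to 3.55 at 40 mg/kg, from -2.46 to 1.68 at 160 mg/kg and from -0.86 to 1.19 in vehicle tumours. These values describe the tumours and carry no test.

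Muscle genes outside the list that are used in development were looked at for the same tumours. Myh3 had 20.6, 146 and 2095 at 40 mg/kg and 6.00, 40.4 and 1151 at 160 mg/kg, against 7.30, 14.4 and 11.4 in vehicle tumours, and 8 of 8 and 7 of 8 treated tumours exceeded all vehicle tumours. Actc1, the cardiac actin of embryonic muscle, had 61.5, 484 and 4024 at 40 mg/kg and 29.3, 123 and 2331 at 160 mg/kg, against 79.2, 52.1 and 63.7 in vehicle tumours. Myog, the transcription factor myogenin that starts fibre differentiation, had 23.4, 136 and 1354 at 40 mg/kg and 1.80, 75.2 and 660 at 160 mg/kg, against 28.4, 6.30 and 20.3 in vehicle tumours. All 3 were highest in tumour 6 at 40 mg/kg. In tumour 5 at 40 mg/kg they were at 20.6, 61.5 and 59.4. Myh8, the perinatal heavy chain, was also highest in tumour 6 at 40 mg/kg but was more mixed. It had 4.60, 28.05 and 1271 at 40 mg/kg and 0.400, 10.45 and 1233 at 160 mg/kg, against 21.1, 8.40 and 19.8 in vehicle tumours. For Myh8, 6 of 8 and 2 of 8 treated tumours exceeded all vehicle tumours, and 6 of 16 lay below all of them.

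Tnnt2, the cardiac troponin T that developing skeletal muscle also makes, had 16.2, 114 and 754 at 40 mg/kg and 3.20, 36.1 and 478 at 160 mg/kg, against 7.20, 1.40 and 2.70 in vehicle tumours. Its difference between all treated and vehicle tumours was 3.57 ± 1.15 (log2, SE) and did not pass the test (limma, adjusted p = 0.0767). It passed without tumour 2 at 160 mg/kg (3.78, adjusted p = 0.0491), with array weights (3.58, adjusted p = 0.00286), and at 40 mg/kg when only those and the vehicle tumours were fitted (4.19, adjusted p = 0.0377). The other cardiac genes were mixed. Casq2, the cardiac and slow-fibre calsequestrin, had its highest signals in the same tumours as the slow troponins, 246 in tumour 6 at 40 mg/kg and 211 in tumour 7 at 160 mg/kg, against 15.3, 14.4 and 61.6 in vehicle tumours. Nppa, the atrial natriuretic peptide, stayed between 20.3 and 44.7 at 40 mg/kg, between 24.5 and 73.6 at 160 mg/kg and between 16.2 and 39.0 in vehicle tumours. Mymk, the fusion protein myomaker, reached 178 in tumour 6 at 40 mg/kg and 89.6 in tumour 7 at 160 mg/kg, beside at most 7.10 in vehicle tumours.

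**Figure D3:**
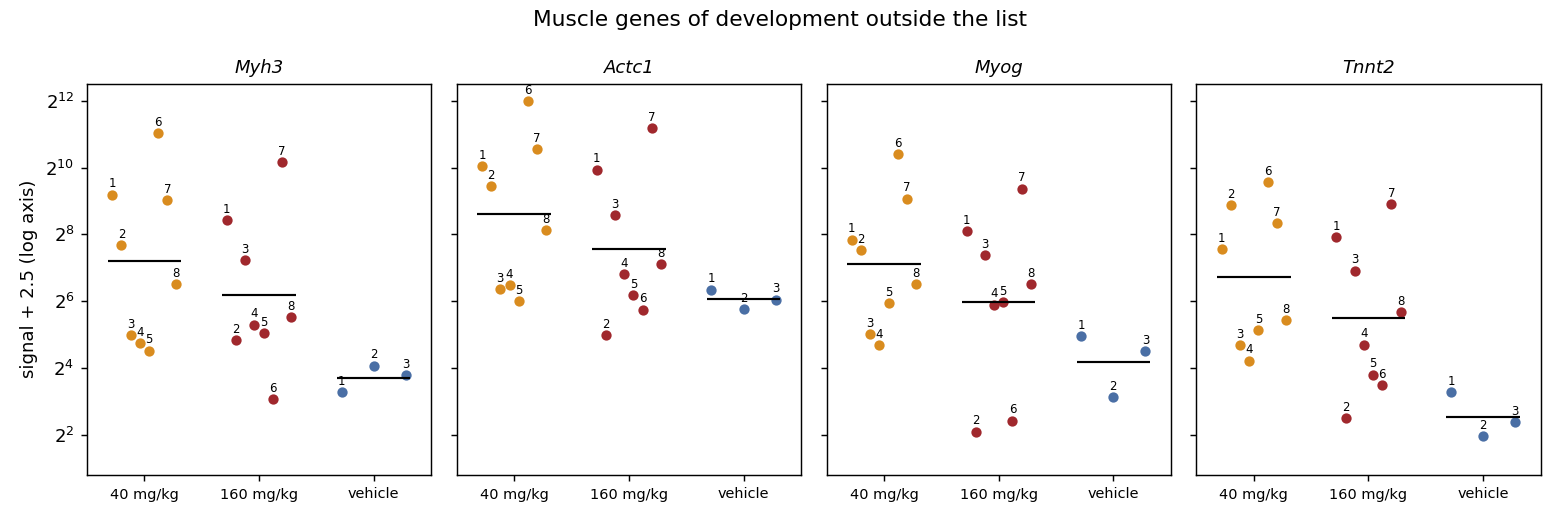
Signal plus 2.5 on a log axis for Myh3, Actc1, Myog and Tnnt2 in each tumour, with tumour numbers and a line at the mean of the log values of the group. Tumour 6 at 40 mg/kg leads in all panels, and the 3 vehicle tumours lie at or near the low end.

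The design asks first whether treated tumours differed from vehicle tumours, and 0 of 34 muscle genes passed the test for the mean of both doses, beside 5.29% of all genes (limma, adjusted p under 0.05 over all probe sets). Nor did any pass at 40 mg/kg, beside 2.55% of all genes, or at 160 mg/kg, beside 4.89%. At an unadjusted p under 0.05 there were 2 of 34 in each of these comparisons, or 5.88%, beside 23.3%, 21% and 22.2% of all genes. The genes at that level were Tnni1 and Myh1 for both doses, Tnni1 and Tnnt1 at 40 mg/kg, and Myh1 and Tcap at 160 mg/kg. The median log2 difference of the muscle genes from vehicle was -0.04 for both doses, 0.34 at 40 mg/kg and -0.66 at 160 mg/kg, beside -0.06, -0.05 and -0.07 over all genes.

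Differences of several log2 units did not pass after adjustment over all probe sets. Before adjustment, the 95% intervals of Tnni1 at 40 mg/kg (1.023 to 6.689) and of Myh1 at 160 mg/kg (-7.155 to -1.071) excluded 0. Tnni1 was 3.86 ± 1.36 (SE) higher on the log2 scale at 40 mg/kg (adjusted p = 0.13) and 2.54 ± 1.36 at 160 mg/kg (adjusted p = 0.3). For Tnnt1 the differences were 2.51 ± 1.16 (adjusted p = 0.238) and 1.64 ± 1.16 (adjusted p = 0.435). Myh1 differed from vehicle by -2.80 ± 1.46 at 40 mg/kg (adjusted p = 0.299) and by -4.11 ± 1.46 at 160 mg/kg (adjusted p = 0.115), all from limma. The 95% interval for Acta1 over both doses was wide, -3.02 to 1.93 around -0.54. Both the spread between tumours and the number of vehicle tumours, 3, enter into it. Between the doses, with 8 tumours in each group, the interval for Acta1 was -3.66 to 0.27.

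Tumour 5 at 40 mg/kg decided 2 of these calls. Without it, Myh1 and Tcap passed, with log2 differences of -3.95 (adjusted p = 0.0229) and -1.17 (adjusted p = 0.0456) for both doses and -4.11 (adjusted p = 0.0243) and -1.33 (adjusted p = 0.0333) at 160 mg/kg. Over all 31143 kept probe sets, leaving out each tumour in turn gave 243 to 1662 calls for both doses and 217 to 1544 at 160 mg/kg. In a fit of the 160 mg/kg and vehicle tumours alone, Myh1 passed with -4.11 (adjusted p = 0.041). With arrays weighted by how well they fit their group, 8 muscle genes passed for both doses. Tnni1, Tnnt1 and Tnnc1 were higher, by 3.69, 2.77 and 1.61. Myh1, Myh4, Mybpc2, Myh2 and Tcap were lower, at -4.25, -2.99, -2.31, -2.07 and -1.52. Calls over the whole array rose strongly in that fit too, as given with the alternatives below, so these 8 calls are not particular to muscle genes. In that fit vehicle tumour 1, the vehicle tumour with the most muscle signal, had a weight of 5.46, beside 0.984 and 0.581 for the others. Without tumour 2 at 160 mg/kg and vehicle tumour 3, the arrays least like the others, 0 genes passed.

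**Figure D4:**
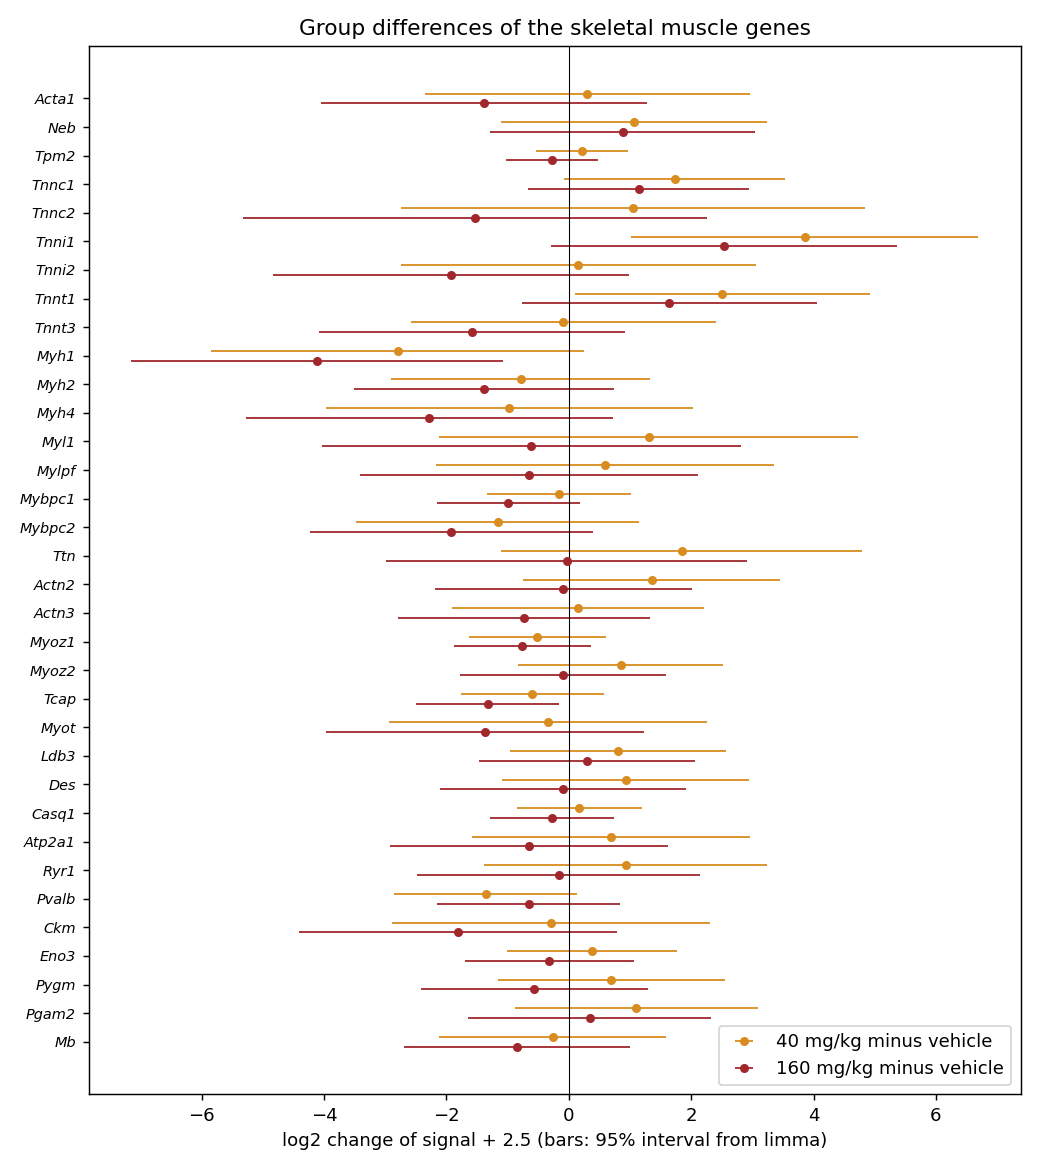
Difference from vehicle in log2(signal + 2.5) for each muscle gene at 40 mg/kg and 160 mg/kg, with 95% intervals from limma. The slow troponin Tnni1 has the highest difference at both doses and Myh1 the lowest.

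Between the doses, 33 of 34 log2 differences of 160 against 40 mg/kg were below 0, with a median of -0.98, beside 7340 of 13454 genes below 0 and a median of -0.02 over all genes. None of the muscle genes passed, 0% of all genes did, and 0 of 34 had an unadjusted p under 0.05, beside 7.41% of all genes (limma). The exception in sign was Pvalb, at 0.70 ± 0.53 (SE). The sharpest differences were those of Tnnc2 (-2.58 ± 1.35) and Tnni2 (-2.08 ± 1.03, unadjusted p = 0.0562, adjusted p = 0.743). The median was -0.68 without tumour 5 at 40 mg/kg and -1.39 without tumour 7 at 160 mg/kg, the extremes over all tumours left out in turn. Since the genes vary together from tumour to tumour, their shared sign is not 33 separate observations.

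How closely the genes moved together was measured against Ckm over the 19 tumours. Of 33 relations, 30 passed for Pearson's r and 29 for Spearman's rho, all of them positive (100000 permutations, Benjamini-Hochberg over the 33). Ckm and the other members were listed together as muscle genes with earlier results of these data known. Positive relations were therefore likely in advance, and the p-values give no separate support for the list. The share of all genes that relate to Ckm was not computed. Tnnt3 followed Ckm most closely, with r = 0.97 (adjusted p = 2.75e-05) and rho = 0.949 (adjusted p = 6.6e-05 in the permutation test). Acta1 had r = 0.935 and rho = 0.902, and Myot r = 0.93 and rho = 0.898. The raw p of these was 1e-05, the smallest that the permutations can give. Tnni1 (r = 0.362, rho = 0.44) and Pvalb (r = 0.387, rho = 0.393) passed for neither measure (permutation test, adjusted p of 0.0667 to 0.127) and had the lowest r. By rho, Pvalb was lowest, followed by Tpm2 (0.419), Tcap (0.432) and Tnni1.

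Without the 2 tumours farthest from the median of Ckm, tumours 5 and 6 at 40 mg/kg, r stayed above 0 for all 33 genes, with a median of 0.728, and 27 passed for r and 23 for rho. Within the 8 tumours at 40 mg/kg 28 passed for r and 20 for rho, and within the 8 at 160 mg/kg 20 and 6 (exact permutation). The 3 vehicle tumours were too few for a value of their own. For some genes the relation at 40 mg/kg rested on the 2 highest tumours: Myh4 had r = 0.891 with Ckm over these 8 tumours and -0.06 without them, and Tcap 0.775 and -0.60. Tnnt3 kept r = 0.87 and Acta1 0.816. Over the 33 genes, leaving out the 2 tumours farthest from the median of Ckm moved the median r at 40 mg/kg from 0.872 to 0.782, with 29 above 0. At 160 mg/kg the median r moved further, from 0.836 to 0.426, with 23 of 33 above 0 and the lowest at -0.69.

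The same was then done against Myog, a choice made after the pattern of the slow troponins was seen. Over 19 tumours 18 of 34 genes passed for r and 17 for rho, again all positive (100000 permutations, Benjamini-Hochberg over the 34). The limits given for the relations to Ckm hold here too. Tnni1 had r = 0.936 and rho = 0.963 (adjusted p = 0.00034, permutation test), Tnnt1 r = 0.835 and rho = 0.823, and Tnnc1 r = 0.828 and rho = 0.832. For the fast genes Myh1, Myh4 and Mybpc2, r was 0.034, 0.175 and 0.02. Tcap had r = -0.084. Without tumour 6 at 40 mg/kg and tumour 2 at 160 mg/kg, the farthest from the median of Myog, Tnni1 had r = 0.927, Tnnt1 0.866 and Tnnc1 0.868, and 12 genes passed for either measure. Within 40 mg/kg Tnni1 had r = 0.936, and within 160 mg/kg 0.929 (exact permutation, adjusted p = 0.0112 and 0.0107). Between the relation to Ckm and that to Myog the difference was not tested.

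**Figure D5:**
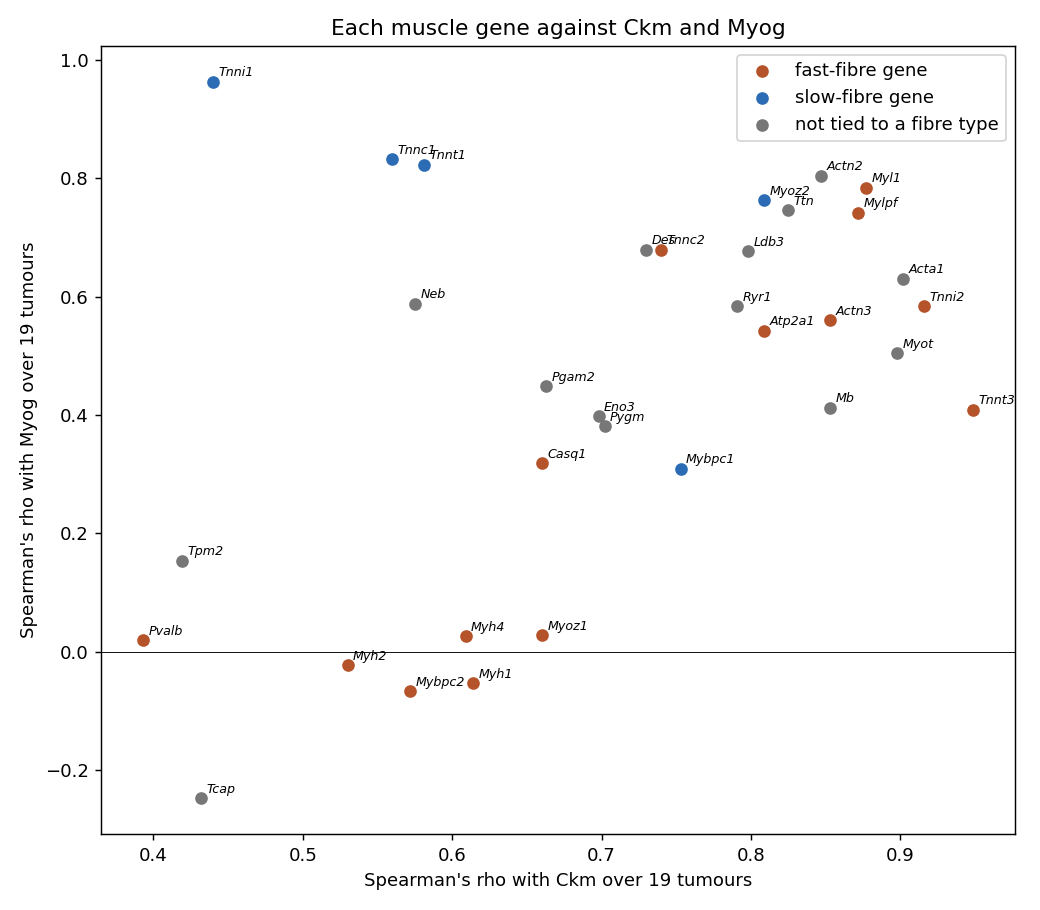
Spearman's rho of each muscle gene over 19 tumours, with Ckm on the horizontal axis and with Myog on the vertical axis, coloured by fibre type. Tnni1 lies at the upper left (0.44 with Ckm, 0.963 with Myog) and Tcap at the lower left (0.432 and -0.248), while Tnnt3 lies far to the right (0.949 and 0.409).

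Further muscle genes were looked at by tumour. Their lists were chosen with earlier results of these data known, so they give no separate support. Of 51 other skeletal muscle genes 41 were tested, 36 of them were highest in tumour 5 or 6 at 40 mg/kg, and 0 passed in any comparison. The share of all genes highest in these 2 tumours was not computed. Of 12 myogenic regulators 9 were tested and 0 passed. The ranks of the 19 tumours by the mean of those 41 genes were 2, 1 and 3 for tumours 5 and 6 at 40 mg/kg and tumour 7 at 160 mg/kg. For the myogenic regulators these ranks were 8, 1 and 2. The cardiac list, which holds Tnnt2 and Casq2, gave 10, 2 and 1, and the smooth muscle list 5, 4 and 14. By the 12 fibroblast and matrix genes the same tumours ranked 5, 11 and 14, by the 7 fat cell genes 4, 5 and 6, by the 6 skin genes 13, 12 and 15, by the 9 endothelial genes 4, 9 and 6, by the 3 nerve genes 6, 12 and 10, and by the 10 medulloblastoma genes 9, 11 and 10. The tumour with the least muscle signal, tumour 6 at 160 mg/kg, ranked first for fibroblast and matrix genes and for smooth muscle genes.

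Levels of these other lists were given by group as sums of signal, and their part in the muscle signal was not tested. The summed signal of the 41 muscle genes ran from 979 to 12650 at 40 mg/kg, from 656 to 8482 at 160 mg/kg and from 997 to 1599 in vehicle tumours. For the fibroblast and matrix genes it ran from 3705 to 7542, from 2512 to 8585 and from 3476 to 7515, and for the fat cell genes from 427 to 1172, from 302 to 2548 and from 635 to 2036, in the same order of groups. For the skin genes the ranges were 2325 to 5367 at 40 mg/kg, 349 to 3474 at 160 mg/kg and 5230 to 5992 in vehicle tumours. For the cardiac genes they were 142 to 1096 at 40 mg/kg, 86 to 879 at 160 mg/kg and 78 to 218 in vehicle tumours. Of the named lists, only Flt1, a receptor of endothelial cells, and Zic1, Neurod1 and Dcx of the neuronal lineage passed for both doses.

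The mean of the muscle genes was also used as a covariate for the rest of the array. Over the 31093 probe sets outside the list, 1478 passed for both doses with the covariate and 1392 without it, and 1329 passed in both fits. At 40 mg/kg these counts were 597, 668 and 574, and at 160 mg/kg 1536, 1260 and 1202. Between the doses 0 passed with or without it (limma).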

How the data were processed

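Expression was measured in 19 tumours with 1 Affymetrix array each. The authors deposited intensity values, made with MAS5 per the submitters' processing notes. MAS5 subtracts background and mismatch signal and scales each array separately (trimmed mean 149.4 to 149.5 on all arrays, with 2% cut at each end); its scaling target is not given here. The table has 45101 probe sets, which fits the full mouse genome array rather than the smaller version that the series text names. Symbols come from GEO's annotation of the full array, in which 34945 probe sets have 1 symbol, 932 several and 9160 none, and only the first were used.

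From the deposited intensity values, log2(signal + 2.5) was computed. A probe set was kept (31143 were) if 3 or more arrays had it over their own 40th percentile. Limma 3.58.1 (R 4.3.3) was fitted to 3 group means with 16 residual degrees of freedom and a variance trend. P-values are two-sided and adjusted by Benjamini-Hochberg over all kept probe sets, with 0.05 as the limit for a call. A gene was represented by its kept probe set with the highest mean. Relations were tested in Python 3.11.15 with scipy 1.17.1. The number of arrays, above all the 3 vehicle arrays, and the spread between tumours limit the precision. No detection calls or scan dates were used.

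The list members, the other gene lists and their roles were chosen with earlier results of these data known. Values by tumour were to be given for the 3 genes with the highest mean in each role and for Ckm, Myh4, Des and Pvalb; other members are given because of their pattern. From the other lists, called genes, those with the smallest p and the brightest marker were to be named. Myh7, Myl3, Myh8, Mymk, Nppa, Casq2, Atoh1, Barhl1, Sox2 and the fat and smooth muscle genes were added after their values were seen. Array pairs correlated at 0.878 to 0.968 and 0 were identical. In simulated arrays, 63% of changes of 1 and 91% of changes of 2 log2 units were recovered for both doses against vehicle, at 4.94% false calls. Each probe set was drawn with its own variance and independently, and the changes were put into probe sets picked at random from the whole array. These rates do not carry over to the muscle genes. Their median log2 SD was 2.05 at 40 mg/kg, 1.54 at 160 mg/kg and 1.04 in vehicle tumours, beside 0.266, 0.329 and 0.198 over all genes. The alternatives were other scaling, pseudocounts, filters, variance settings, weights per array, fits restricted to the groups compared, a replicate block, and leaving out arrays. Promoter windows were read from RefSeq tables on GRCm38.p6; 28 of the 35 genes had a window that was read.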

Additional observations from a re-analysis of the deposited data

Results flagged for a closer look

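A tumour stood far from the other 7 of its dose group in 9 of 68 combinations of muscle gene and dose. The measure was the gap between the extreme tumour and its neighbour, divided by the range of the group on the log2 scale, and values above 0.526 were picked out. Chance alone picks out about 1 group in 20 by this measure, and genes that move together are not separate observations.

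Tumour 7 was the high extreme at 160 mg/kg for Tnnt3 (0.610), Myh1 (0.618), Myh4 (0.610), Actn3 (0.638), Atp2a1 (0.545) and Eno3 (0.639). At 40 mg/kg tumour 5 was the high extreme for Myh2 (0.572) and Tcap (0.612), and tumour 6 for Mybpc1 (0.527). These are the 3 tumours with the highest mean over all muscle genes.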

How the results depend on the processing

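The count of muscle genes that passed was 0 in each comparison, and it differed under a few alternatives. With array weights it was 8 for both doses, 6 at 40 mg/kg and 5 at 160 mg/kg, and calls over the whole array rose as well (given below). With only the vehicle and 160 mg/kg tumours fitted it was 1 at 160 mg/kg (Myh1). Leaving out each tumour in turn gave 0 to 2 for both doses and at 160 mg/kg, where the 2 were Myh1 and Tcap without tumour 5 at 40 mg/kg, and 0 at 40 mg/kg and between the doses. The median difference of the muscle genes ran from -0.54 (without vehicle tumour 2) to 0.36 (without vehicle tumour 1) for both doses, from 0.03 to 0.91 at 40 mg/kg and from -1.04 to -0.14 at 160 mg/kg for the same tumours, so leaving out vehicle tumour 1 turned its direction for both doses. Acta1 over both doses was at 0.21 without vehicle tumour 1.

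Groups share replicate numbers in the labels, but deviations of same-numbered arrays correlated at -0.13 to 0.09 in 14 pairs, with 0 above 0.1, so the numbers were not taken as pairs. With the replicate block, 0 muscle genes passed in all 4 comparisons, and Tnni1 (3.65, adjusted p = 0.151) and Myh1 (-4.44, adjusted p = 0.124) over both doses did not pass; over all probe sets 819 passed for both doses and 324 at 40 mg/kg, beside 1392 and 668 without the block. The relation to Ckm passed for rho in 6 genes within 160 mg/kg, and that to Myog in 4 within 40 mg/kg. Over all 31143 kept probe sets, array weights gave 8907, 7452 and 6145 calls for both doses, 40 and 160 mg/kg. Leaving out vehicle tumour 3 gave 243, 120 and 217. The cause was not tested. Leaving out tumour 2 at 160 mg/kg and vehicle tumour 3 together was chosen after seeing the data, as was the relation to Myog.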
